A study of Mus musculus with 32 samples.

Results

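The 5 genes described here, *Cyp27a1*, *Cyp7b1*, *Cyp39a1*, *Cyp46a1* and *Ch25h*, encode the sterol hydroxylases that make oxysterols or carry them into the alternative pathway of bile acid synthesis. They were chosen by gene name and are 5 of the 54532 genes in a liver RNA-Seq table of WT and *Cyp2c70* KO mice. The choice was made with earlier results of these data known. The study compared chow with a diet holding SC-435, an inhibitor of the ileal bile acid transporter (IBATi), which keeps bile acids from being reabsorbed in the ileum. All mice were on a C57BL/6 background, were killed at 12 weeks of age and form 8 groups of 4: females and males, wild type or *Cyp2c70* KO, fed chow or chow with 0.006% SC-435 (about 11 mg/kg/day). The KO line came from CRISPR-Cas9 editing aimed at exon 2 of *Cyp2c70*, which encodes the mouse enzyme that makes muricholic acids, and the edit is in the germline rather than in hepatocytes alone.

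Bile acids are made from cholesterol along a classical route, begun by Cyp7a1 in the endoplasmic reticulum, and an alternative route, begun by oxidation of the cholesterol side chain. Cyp27a1, in mitochondria, adds the 27-hydroxyl group and also oxidizes side chains in the classical route. Ch25h and Cyp46a1 place a hydroxyl group at carbon 25 or 24. Cyp7b1 then adds the 7α-hydroxyl group to 25- and 27-hydroxycholesterol, and Cyp39a1 does so for 24-hydroxycholesterol. Cyp46a1 is best known from neurons and Ch25h from macrophages, and Cyp7b1 is a classic male-biased gene of mouse liver.

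Library totals lay between 36476021 and 44771350 counts (median 42232543), and levels are given as CPM, counts scaled to library size with TMM factors. *Cyp2c70* itself lay between 271 and 838 CPM in the 16 WT libraries and between 109 and 188 CPM in the 16 KO libraries, so reads of the edited gene were fewer but still counted. The library of male WT chow replicate 1 stood apart, with a TMM factor of 0.622 against 0.912 to 1.256 for the other 31 and a mean correlation of 0.921 with its group against at least 0.963. Summed levels of 8 hepatocyte markers were between 50085 and 183935 CPM over all groups, the highest of them in that group. Fitted differences of single members that use this library are therefore also given without it. Levels per kilobase, ratios of group means and correlations over the 32 libraries include it. In whole liver, fewer cells of a type and less RNA per cell cannot be told apart.

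Per kilobase of gene length, *Cyp27a1* had the highest level, with a mean of 316 CPM per kilobase over the 32 libraries, followed by *Cyp7b1* at 75.9, *Cyp39a1* at 9.48, *Cyp46a1* at 0.493 and *Ch25h* at 0.0698. *Cyp7b1* varied most between groups among the 4 genes with more than a few counts, with a ratio of 26.4 between its highest and lowest group mean, whereas this ratio was 2.28 for *Cyp27a1*, 3.71 for *Cyp39a1* and 5.09 for *Cyp46a1*. The mean of *Cyp7b1* was above that of *Cyp39a1* in every group but chow-fed KO females. In chow-fed females the mouse ranges of these neighbours overlapped, at 21.3 ± 11.9 and 15.5 ± 1.75 CPM per kilobase in WT mice and 7.30 ± 2.81 and 8.25 ± 2.93 in KO mice (SD, n = 4), while in chow-fed WT males they were at 192 ± 59.7 and 7.23 ± 1.48 (SD, n = 4) and did not overlap. On SC-435 they overlapped in WT females (20.9 ± 3.53 and 16.9 ± 2.84 CPM per kilobase, SD, n = 4) and not in KO females (15 ± 0.323 and 9.38 ± 1.41). *Cyp46a1* and *Ch25h* overlapped in chow-fed KO males, at 0.181 ± 0.120 and 0.215 ± 0.0864 CPM per kilobase (SD, n = 4).

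**Figure D1:**
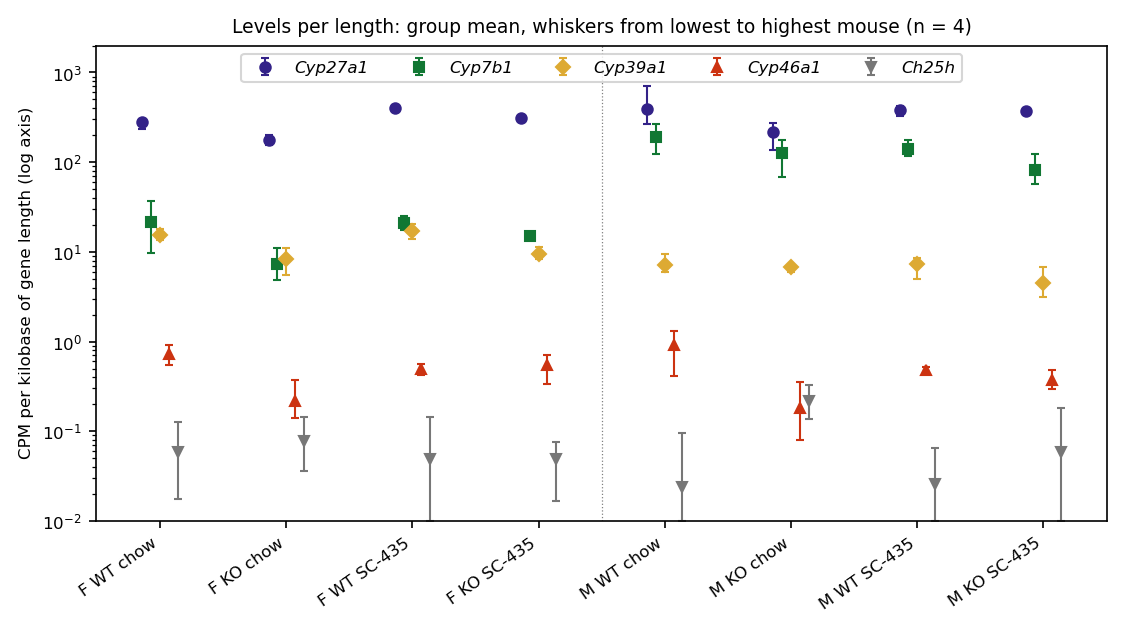
Mean CPM per kilobase of gene length (log axis) for the 5 genes in the 8 groups, with whiskers from the lowest to the highest of 4 mice; a whisker that reaches the lower edge includes a mouse with 0 counts. *Cyp7b1* (squares) lies near *Cyp39a1* (diamonds) in females and above it in males.

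Across the comparisons, the 4 more abundant of these genes were lower in chow-fed KO than WT females and 3 of them rose with SC-435 in KO females. Fewer differences passed the test in males, but the genotype effect on chow was not shown to differ between the sexes for any member tested. A gene passed at an adjusted p under 0.05 in edgeR's quasi-likelihood test, over all genes tested. In KO against WT females on chow, 4 of the 4 members tested fell, *Cyp27a1*, *Cyp7b1*, *Cyp39a1* and *Cyp46a1*, where 14.9% of all genes tested passed in either direction. In KO females given SC-435, 3 of 4 rose, all but *Cyp39a1*, beside 17.8% of all genes. With SC-435 in WT females, *Cyp27a1* rose, 1 of 4, beside 4.28%. Between KO and WT females that both received SC-435, 3 of 4 were lower in KO mice, all but *Cyp46a1*, beside 10.9%. These contrasts share groups, so their counts are not independent of each other. Since the members and gene lists were chosen with earlier results known, the shares of all genes are a background and no test of a set.

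In males, 0 of 4 members passed between KO and WT mice on chow in edgeR's test, where 1.08% of genes passed. *Cyp27a1* and *Cyp46a1* had an unadjusted p under 0.05 there, and *Cyp46a1* passed with DESeq2. In KO males given SC-435, *Cyp27a1* rose, 1 of 5 tested, beside 17.2%. With SC-435 in WT males 0 of 4 passed in edgeR or DESeq2, beside 0.0394% of genes, and *Cyp46a1* had an unadjusted p under 0.05. Between KO and WT males that both received SC-435, 0 of 4 passed in either tool, beside 0.0324%, and *Cyp7b1* and *Cyp39a1* had an unadjusted p under 0.05. On chow, males differed from females in 2 of 4 members among WT mice, *Cyp7b1* and *Cyp39a1*, beside 1.49%, and in 1 of 4 among KO mice, *Cyp7b1*, beside 2.73%. The genotype effect on chow differed between the sexes for 0 of 4 members in edgeR or DESeq2 (0.0235% of genes), with *Cyp39a1* at an unadjusted p under 0.05. The SC-435 effect in KO mice differed between the sexes for 0 of 5 (0.211%), with *Cyp7b1* and *Cyp39a1* at an unadjusted p under 0.05 and *Cyp7b1* passing with DESeq2. The SC-435 effect differed between the genotypes for 1 of 4 in females, *Cyp46a1* (2.64%), with *Cyp27a1* and *Cyp7b1* at an unadjusted p under 0.05. In males it did so for 0 of 4 (0.0906%), where *Cyp46a1* had an unadjusted p under 0.05 and passed with DESeq2. Of the members that passed in comparisons of groups, a log2 change of at least 1 was reached by 2 in chow-fed KO females, 2 in KO females with SC-435, and all 3 between the sexes. *Ch25h* had too few counts to be tested in 12 of the 14 comparisons, and entered the other 2 through its counts in chow-fed KO males.

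**Figure D2:**
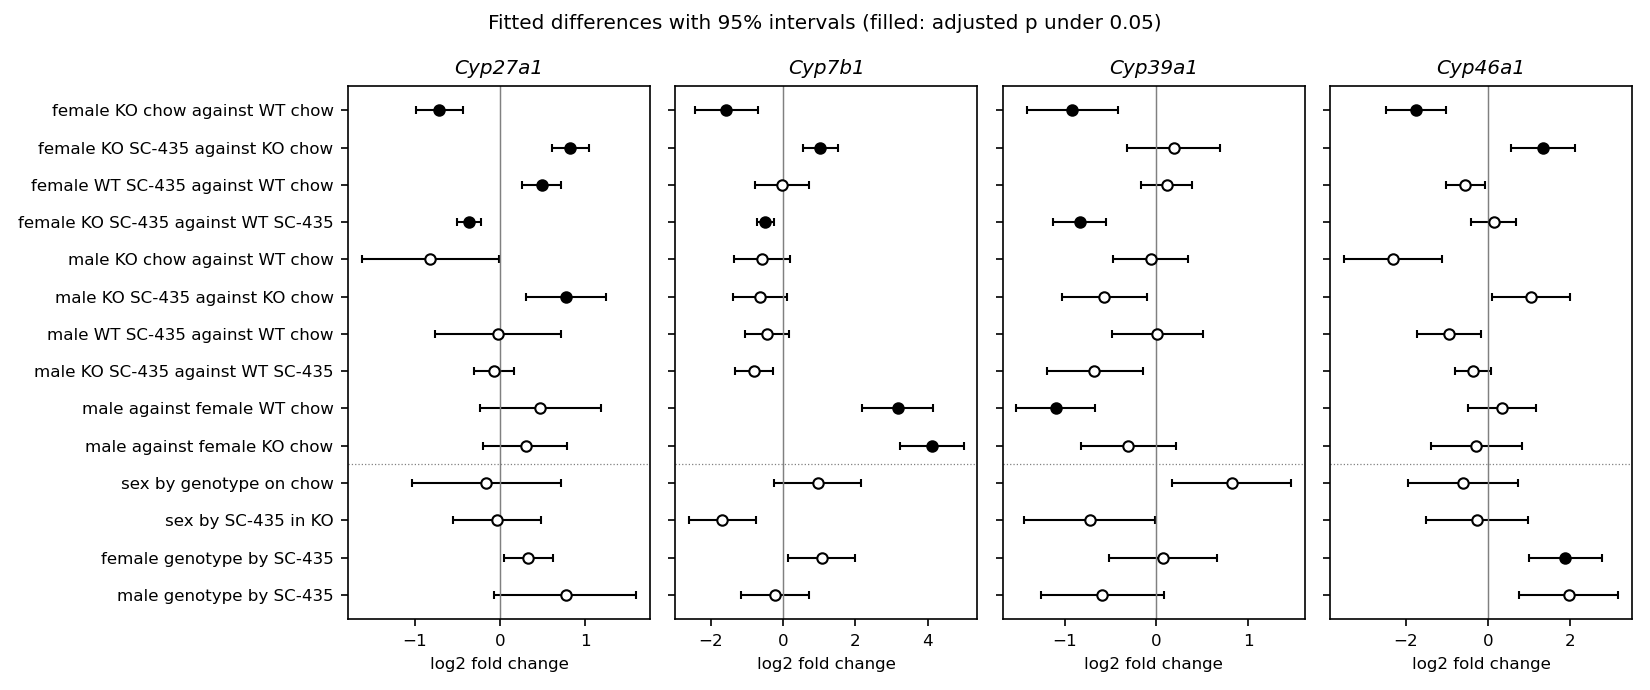
Fitted log2 fold changes (x axis) of the 4 abundant members in 10 comparisons of groups and, under the dotted line, 4 interactions, with 95% intervals; filled points passed at an adjusted p under 0.05. *Cyp7b1* in males against females has the largest values, 3.18 and 4.12, and the females fill most of the remaining points.

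*Cyp27a1* (ENSMUSG00000026170) lies on the plus strand of chromosome 1, from 74713574 to 74737892 in mm10. GENCODE lists 3 transcripts, of which 1 codes for protein and has 9 exons. In chow-fed females its level was 642.5, 665, 643 and 508 CPM in the WT mice and 350.3, 342, 393 and 432 CPM in the KO mice. On SC-435 it was 846, 953, 799 and 856 CPM in WT females and 669.6, 655.5, 669 and 686 CPM in KO females. No KO female on chow reached a WT female on chow, and every female on SC-435 was above every chow-fed KO female. *Cyp27a1* was lower in KO than WT females on chow (log2 fold change -0.71, standard error 0.12, adjusted p = 0.00611 from edgeR) and rose with SC-435 in KO females (log2 fold change 0.82, standard error 0.10, adjusted p = 0.0015). Both calls held in each of the fits without 1 library.

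In WT females *Cyp27a1* was also higher on SC-435 (log2 fold change 0.49, standard error 0.10, adjusted p = 0.0304 from edgeR), with no overlap between the groups. This call was lost in 6 of 8 fits without 1 library, those leaving out chow replicate 2 or 3 or any of the 4 SC-435 replicates, where the adjusted p was 0.055 to 0.0953. On SC-435, KO females stayed below WT females (log2 fold change -0.36, standard error 0.07, adjusted p = 0.00894). The 2 SC-435 effects were not shown to differ, with an interaction of 0.33 on the log2 scale (95% interval 0.05 to 0.62, adjusted p = 0.178).

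In males on chow, *Cyp27a1* was at 1521.5, 651, 646 and 583 CPM in WT mice and 599.9, 581, 403 and 298 CPM in KO mice. On SC-435 it was at 910.0, 861, 867.5 and 713.5 CPM in WT males and at 766, 748, 816.5 and 876 CPM in KO males. The value of 1521.5 CPM is that of the library that stands apart, and the groups on chow overlapped. KO and WT males on chow differed by -0.82 on the log2 scale (standard error 0.36, adjusted p = 0.317 from edgeR), and by -0.40 without that library (adjusted p = 0.296). In KO males *Cyp27a1* rose with SC-435 (log2 fold change 0.77, standard error 0.21, adjusted p = 0.0346), and the groups did not overlap. That call was lost in 5 of 8 fits without 1 library, those without KO chow replicate 3 or any of the 4 SC-435 replicates (adjusted p 0.0603 to 0.0953), and with the 4 male groups in a single fit (adjusted p = 0.114). In WT males the SC-435 difference was -0.02 (adjusted p = 0.988) with all libraries and 0.42 (standard error 0.12, adjusted p = 0.111) without the library that stands apart. On SC-435, KO and WT males differed by -0.07 (95% interval -0.30 to 0.17).

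**Figure D3:**
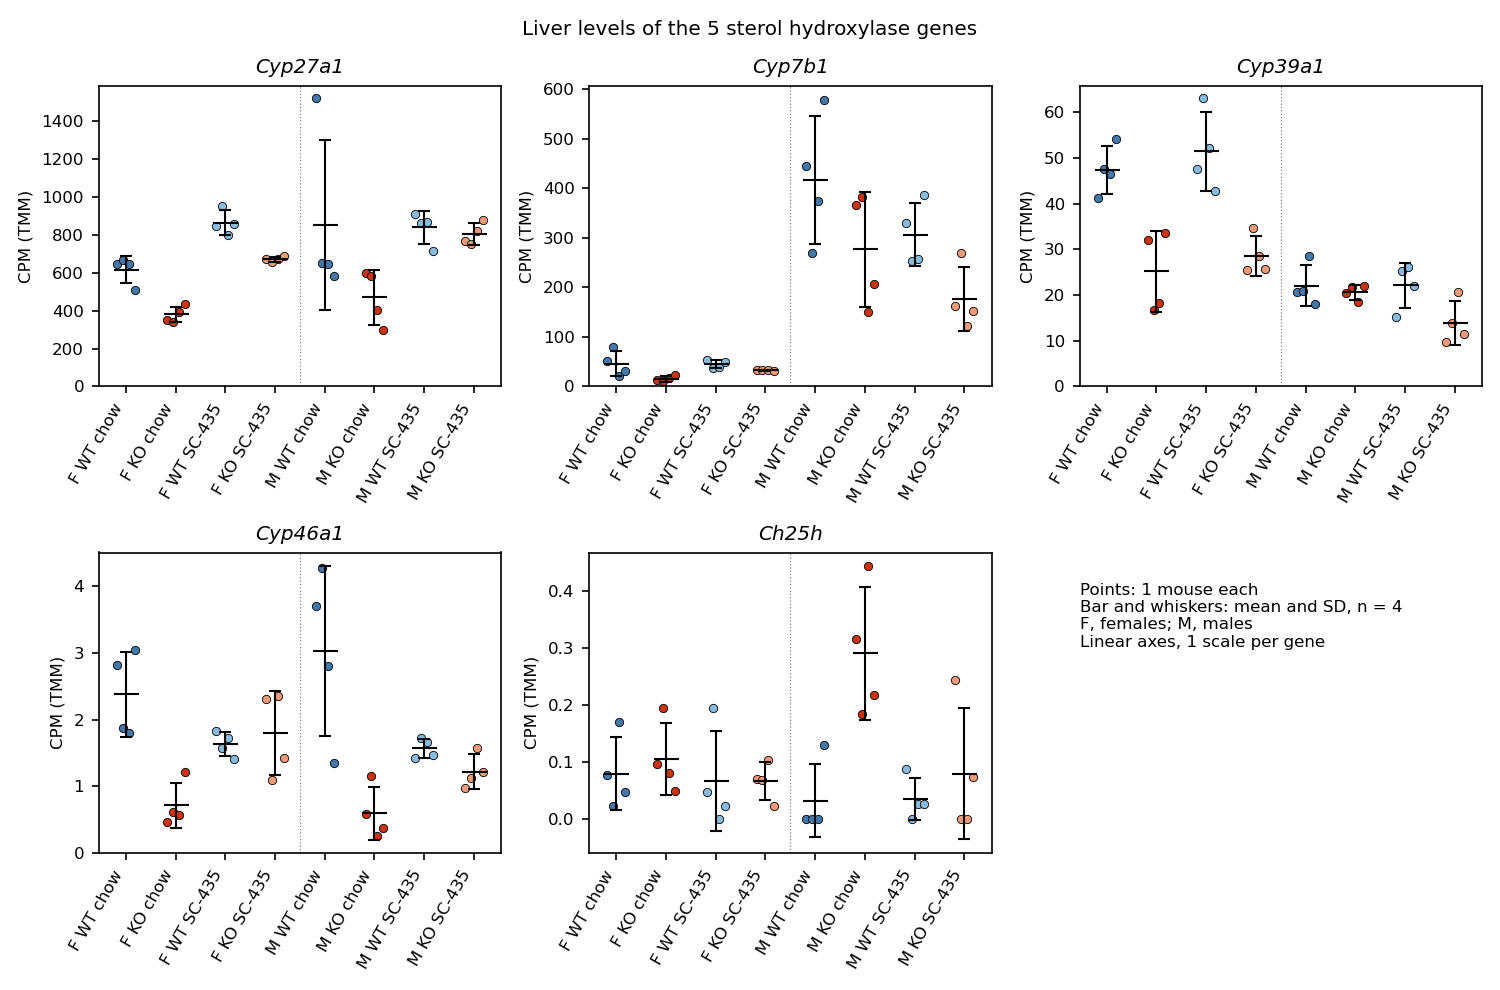
Levels in CPM (linear y axes from 0, apart from *Ch25h*, whose axis runs slightly below 0 to show the SD) for each mouse (points), with the mean and SD of 4 mice, in the 8 groups. *Cyp27a1* in chow-fed KO females sits at 342 to 432 CPM, under all other females, and 1 chow-fed WT male is at 1521.5 CPM.

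Hepatocyte markers moved with the female genotype on chow. The summed level of 8 of them (*Alb*, *Apoa1*, *Ttr*, *Cps1*, *Pck1*, *Serpina1a*, *Tat* and *Asgr1*) was 91034 to 118068 CPM in WT and 55284 to 78031 CPM in KO females on chow. Of the 8, 4 fell and 1 rose, where 14.9% of all genes passed in either direction. The log2 fold changes were -0.82 for *Alb*, which encodes albumin, and 0.53 for *Cps1*, the first enzyme of the urea cycle. With SC-435 in KO females, *Pck1*, which encodes a gluconeogenic enzyme, fell (log2 fold change -0.50, adjusted p = 0.0377 from edgeR). The other 7 were fitted higher, of which 0 passed in edgeR (*Alb* at 0.55, adjusted p = 0.0548), while DESeq2 called 3 of the 8 and 4 of the 8 had an unadjusted p under 0.05. The summed level was 83601 to 96633 CPM in these mice. The part of hepatocyte content in the falls of the hydroxylase genes was not tested. Of 12 macrophage markers, 10 rose in KO females on chow, beside 14.9% of all genes, and 11 fell with SC-435, beside 17.8%. Of 7 cholangiocyte markers, 6 of them tested, 4 rose and 3 fell in the same comparisons. In KO males given SC-435, where *Cyp27a1* rose, 17.2% of all genes passed. There, 0 of the 8 hepatocyte markers passed in edgeR or DESeq2 or had an unadjusted p under 0.05. Of the other markers tested, 4 of 12 macrophage, 5 of 6 cholangiocyte, 3 of 7 stellate cell and 2 of 2 neutrophil markers fell. Of 8 endothelial markers 4 rose. The part of these cells in the rise of *Cyp27a1* was not tested.

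*Cyp7b1* (ENSMUSG00000039519) spans 18071950 to 18243338 on the minus strand of chromosome 3 in mm10, with 1 transcript of 6 exons. In chow-fed females it was at 51.3, 79.9, 21.3 and 32.1 CPM in WT and at 12.2, 10.5, 16.4 and 24.1 CPM in KO mice. The SC-435 values were 54.3, 37.8, 40.2 and 48.8 CPM in WT and 33.0, 32.6, 32.9 and 31.5 CPM in KO females. The chow groups overlapped through 1 WT and 1 KO mouse, whereas no KO female on SC-435 overlapped with either chow-fed KO females or WT females on SC-435. *Cyp7b1* was lower in KO females on chow (log2 fold change -1.56, standard error 0.39, adjusted p = 0.025 from edgeR). That call was lost in 5 of 8 fits without 1 library, those without WT replicate 1 or 2 or KO replicate 1, 2 or 3 (log2 fold change -1.56 to -1.16, adjusted p 0.058 to 0.0804).

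In KO females *Cyp7b1* rose with SC-435 (log2 fold change 1.04, standard error 0.22, adjusted p = 0.0116 from edgeR) and passed in each of the fits without 1 library. In WT females the SC-435 difference was -0.03 (95% interval -0.78 to 0.72). The 2 SC-435 effects were not shown to differ, with an interaction of 1.07 on the log2 scale (95% interval 0.15 to 1.99, adjusted p = 0.179 from edgeR). KO females on SC-435 remained lower than WT females on SC-435 (log2 fold change -0.48, standard error 0.11, adjusted p = 0.0196). That call was lost without KO replicate 2 (adjusted p = 0.0582) and with the 4 female groups in a single fit (adjusted p = 0.412).

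In males on chow *Cyp7b1* was at 445, 270, 373.5 and 578 CPM in WT and 366, 383, 149 and 207 CPM in KO mice. The SC-435 values were 329, 252.5, 257 and 387 CPM in WT and 163, 270, 123 and 152 CPM in KO males. All 16 males were above all 16 females, the highest of which was at 79.9 CPM. On chow, males exceeded females by 3.18 on the log2 scale in WT mice (standard error 0.43, adjusted p = 0.00718 from edgeR) and by 4.12 in KO mice (standard error 0.39, adjusted p = 0.000867). Without the library that stands apart, the first of these was 3.14 (adjusted p = 0.00219).

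Within males, the genotype and diet groups of *Cyp7b1* overlapped in every comparison. KO males differed from WT males by -0.57 on chow (adjusted p = 0.461 from edgeR; -0.54 without the library that stands apart) and by -0.79 on SC-435 (standard error 0.24, adjusted p = 0.384). The SC-435 difference was -0.64 in KO males (adjusted p = 0.197) and -0.44 in WT males (adjusted p = 0.836; -0.41 without the library that stands apart). The fitted SC-435 differences in KO mice thus had opposite signs in the sexes, and their difference was -1.67 (95% interval -2.59 to -0.75, adjusted p = 0.124). This difference passed with DESeq2 (adjusted p = 0.0111) and without female KO chow replicate 4 (-1.96, adjusted p = 0.0358).

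*Cyp39a1* (ENSMUSG00000023963) is on the plus strand of chromosome 17 in mm10, from 43667425 to 43751431, with 4 protein-coding transcripts, the longest of 12 exons. Chow-fed WT females had 41.3, 47.7, 46.5 and 54.2 CPM and chow-fed KO females 32, 16.7, 18.3 and 33.7 CPM. On SC-435, WT females had 47.7, 63.1, 52.3 and 42.8 CPM and KO females 25.4, 34.7, 28.6 and 25.8 CPM. On each diet all 4 KO females were below all 4 WT females, and the diets overlapped within each genotype. *Cyp39a1* was lower in KO females on chow (log2 fold change -0.92, standard error 0.22, adjusted p = 0.0224 from edgeR) and on SC-435 (-0.84, standard error 0.13, adjusted p = 0.00442). The call on chow was lost without WT replicate 2 or 4 or KO replicate 2 or 3 (adjusted p 0.0524 to 0.0618), and that on SC-435 held in each of the fits without 1 library. With SC-435, KO females differed by 0.19 (95% interval -0.32 to 0.69) and WT females by 0.11 (95% interval -0.17 to 0.39), and the interaction was 0.07 (95% interval -0.52 to 0.66).

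In males *Cyp39a1* was at 20.7, 20.8, 28.6 and 18.1 CPM in WT mice on chow and 20.5, 21.7, 18.4 and 21.9 CPM in KO mice on chow. The SC-435 values were 15.2, 25.2, 26.1 and 22.1 CPM in WT males and 9.66, 13.9, 20.6 and 11.4 CPM in KO males. WT males on chow were below all WT females on chow (log2 fold change -1.10, standard error 0.19, adjusted p = 0.0248 from edgeR). That call was lost in 6 of 8 fits without 1 library, those without male replicate 2 or 4 or any female (adjusted p 0.058 to 0.102), and passed without the library that stands apart (-1.07, adjusted p = 0.00371). Among KO mice on chow the sexes differed by -0.31 (95% interval -0.83 to 0.21), and the interaction of sex and genotype was 0.82 (95% interval 0.17 to 1.47, adjusted p = 0.632; 0.78 without the library that stands apart). KO and WT males on chow differed by -0.06 (95% interval -0.48 to 0.35; -0.11 without the library that stands apart).

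SC-435 differed from chow in KO males by -0.57 for *Cyp39a1* (standard error 0.21, adjusted p = 0.083 from edgeR), which passed with library size only as scaling (-0.78, adjusted p = 0.0326) and without KO SC-435 replicate 3 (-0.82, adjusted p = 0.0143). On SC-435, KO males differed from WT males by -0.68 (standard error 0.23, adjusted p = 0.437).

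*Cyp46a1* (ENSMUSG00000021259) lies on the plus strand of chromosome 12 in mm10, from 108334381 to 108362234, with 1 protein-coding transcript of 15 exons among 4. It was a low gene here, with 13 to 156 counts per library. In chow-fed females it was at 2.82, 1.88, 1.80 and 3.04 CPM in WT and 0.464, 0.620, 0.565 and 1.21 CPM in KO mice. On SC-435 it was at 1.83, 1.58, 1.72 and 1.41 CPM in WT and 2.31, 1.10, 2.35 and 1.43 CPM in KO females. Every chow-fed KO female was below every WT female on either diet, and 3 of the 4 were below every KO female on SC-435. *Cyp46a1* was lower in KO females on chow (log2 fold change -1.75, standard error 0.33, adjusted p = 0.00803 from edgeR), and it passed in each of the fits without 1 library.

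With SC-435 *Cyp46a1* rose in KO females (log2 fold change 1.34, standard error 0.36, adjusted p = 0.0288 from edgeR). The call was lost in 5 of 8 fits without 1 library, those without KO chow replicate 1, 2 or 3 or SC-435 replicate 1 or 3 (adjusted p 0.0674 to 0.0832). In WT females the difference with SC-435 was -0.55 (standard error 0.21, adjusted p = 0.186). The interaction of genotype and SC-435 in females was 1.89 (standard error 0.43, adjusted p = 0.0317). It passed in 5 of 16 fits without 1 library, and in the other 11 the adjusted p was 0.0525 to 0.0799. On SC-435, KO and WT females differed by 0.14 (95% interval -0.42 to 0.69).

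In males *Cyp46a1* was at 3.70, 4.27, 2.80 and 1.35 CPM in WT and 0.587, 1.15, 0.262 and 0.379 CPM in KO mice on chow. On SC-435 it was at 1.43, 1.72, 1.66 and 1.47 CPM in WT and 0.973, 1.12, 1.58 and 1.21 CPM in KO males. The chow groups did not overlap. Their difference was -2.32 (95% interval -3.52 to -1.13, adjusted p = 0.0832 from edgeR) and did not pass, while it passed with DESeq2 (adjusted p = 0.000452), with the 4 male groups in a single fit (adjusted p = 0.00399) and without the library that stands apart (-2.23, adjusted p = 0.0482). With SC-435, KO males differed by 1.05 (standard error 0.43, adjusted p = 0.112) and WT males by -0.94 (standard error 0.35, adjusted p = 0.718; -0.83 without the library that stands apart). The difference in KO males passed without KO chow replicate 2 (1.59, adjusted p = 0.0195). The interaction in males was 1.97 (95% interval 0.76 to 3.18, adjusted p = 0.171) and passed with DESeq2 (adjusted p = 0.029), and it was 1.86 (adjusted p = 0.114) without the library that stands apart. On chow the difference of males from females was 0.35 in WT mice (95% interval -0.48 to 1.18; 0.24 without the library that stands apart) and -0.28 in KO mice (95% interval -1.39 to 0.83), and in both the sexes overlapped.

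Of 5 neuronal markers (*Snap25*, *Syn1*, *Rbfox3*, *Tubb3* and *Gap43*), 2 had 3 counts or fewer in every library, and their summed level was 0.743 to 2.71 CPM over all libraries. It was 1.11 to 2.07 CPM in WT and 2.06 to 2.71 CPM in KO females on chow. There 0 of the 2 tested passed in edgeR (1 with an unadjusted p under 0.05 and 1 with DESeq2), beside 14.9% of all genes. The part of neuronal cells in the levels of *Cyp46a1* was not tested.

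The promoters of *Cyp27a1* and *Cyp46a1* are shown because both genes fell in chow-fed KO females and rose with SC-435 in KO females. The sequences are the 250 bases before the RefSeq start on build GRCm38.p6, plus strand, chr1:74713285-74713534 for *Cyp27a1* and chr12:108334066-108334315 for *Cyp46a1*. Capitals mark matches, on either strand, to GGGCGG (the core of a GC box) and CCAAT.
Cyp27a1: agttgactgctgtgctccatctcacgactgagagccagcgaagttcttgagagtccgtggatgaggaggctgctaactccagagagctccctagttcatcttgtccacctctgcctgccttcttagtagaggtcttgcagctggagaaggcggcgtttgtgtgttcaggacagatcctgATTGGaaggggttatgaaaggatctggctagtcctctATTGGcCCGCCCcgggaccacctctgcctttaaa
Cyp46a1: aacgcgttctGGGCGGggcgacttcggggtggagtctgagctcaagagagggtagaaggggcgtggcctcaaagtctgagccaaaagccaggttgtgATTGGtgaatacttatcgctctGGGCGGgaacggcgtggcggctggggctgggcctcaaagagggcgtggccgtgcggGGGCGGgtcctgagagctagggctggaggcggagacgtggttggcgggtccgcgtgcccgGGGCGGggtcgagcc
The *Cyp46a1* window held 4 matches to GGGCGG and 1 to CCAAT, with a GC content of 67.6%, and that of *Cyp27a1* held 1 and 2, with 54.0%. Among 32851 promoter windows of the same length, 32.7% held GGGCGG, 33.8% held CCAAT and 4.09% held 4 or more matches to GGGCGG, and the median GC content was 52.4%. Neither window held TATAAA, found in 12.4% of all windows, the E-box CACGTG, found in 6.02%, or the nuclear receptor motif AGGTCA, found in 14%, on either strand. Of the members, *Cyp7b1* and *Cyp39a1* had no entry, and the window of *Ch25h* held 1 TATAAA, 0 GGGCGG and 0 CCAAT. A match is only a description of these letters.

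*Ch25h* (ENSMUSG00000050370), a single-exon gene on the minus strand of chromosome 19, from 34473786 to 34475135 in mm10, was close to the limit of detection. Chow-fed WT males had 0, 0, 0 and 5 counts and chow-fed KO males 14, 8, 22 and 12. On SC-435, WT males had 3, 0, 1 and 1 counts and KO males 10, 0, 0 and 3. In females the counts on chow were 3, 1, 7 and 2 in WT and 5, 10, 4 and 2 in KO mice, and on SC-435 they were 2, 8, 0 and 1 in WT and 3, 3, 4 and 1 in KO mice. KO males on chow were above all WT males, on either diet, and the other groups overlapped with each other.

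In CPM, *Ch25h* was at 0.290 ± 0.117 in chow-fed KO males and 0.0324 ± 0.0648 in chow-fed WT males (SD, n = 4). Among these WT males 3 counts are worth at most 0.117 CPM, a value set by the low TMM factor of the library that stands apart. A two-sided exact permutation test of these groups gave p = 0.0286, the smallest that 4 against 4 mice allow, and 0.286 after adjustment over 10 comparisons of groups. Without the library that stands apart, 3 WT males were at 0.0432 ± 0.0748 CPM (SD), and edgeR, in which the gene then passed the filter, gave an adjusted p of 0.107. With SC-435 in KO males the exact permutation test gave p = 0.0857 (adjusted p = 0.286), and edgeR put the difference at -1.81 on the log2 scale (standard error 0.82, adjusted p = 0.146), for a gene that passed the filter through the group where it is high. Beside this, the summed level of 12 macrophage markers was 332 to 585 CPM in WT and 413 to 1566 CPM in KO males on chow, and 722 to 1076.5 CPM in KO females on chow, where *Ch25h* did not separate from WT females (exact permutation p = 0.514). The part of macrophage content was not tested. A noncoding gene on the opposite strand, *Gm26902*, shares 159 exonic bases (11.46%) with *Ch25h* in GENCODE, and since the strand setting of the libraries is not stated, reads there cannot be assigned to either gene.

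Among other enzymes of bile acid synthesis, some fell in chow-fed KO females and some rose with SC-435, only in part the same genes. In KO against WT females on chow, 7 of 15 fell and 0 rose, where 14.9% of all genes passed, with a median log2 fold change of -0.48 beside -0.02 for all genes tested. The largest falls that passed were those of *Cyp8b1*, the 12α-hydroxylase (log2 fold change -3.22, standard error 0.84, adjusted p = 0.0287 from edgeR), and *Slc27a2*, a bile acid and fatty acid CoA ligase (-0.64, standard error 0.16, adjusted p = 0.0228). *Cyp7a1*, the rate-limiting enzyme of the classical pathway, differed by 0.21 (standard error 0.70, adjusted p = 0.871 from edgeR). *Cyp27a1* fell by 0.71 (standard error 0.12), and whether these genes differed in their change was not tested. The paper reports lower *Cyp7a1* mRNA, by real-time PCR, and lower protein in female KO than WT mice. Among KO females on SC-435, 8 of 15 rose and 0 fell, beside 17.8% of all genes (median 0.36 beside -0.02), led by *Cyp8b1* (5.0) and *Cyp7a1* (3.45, adjusted p = 0.00993). *Slc27a2*, which fell on chow, differed by 0.04 with SC-435 in KO females (adjusted p = 0.837 from edgeR). In WT females 3 of 15 rose with SC-435, beside 4.28% (median 0.11), led by *Cyp7a1* (4.28) and *Cyp8b1* (2.43).

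**Figure D4:**
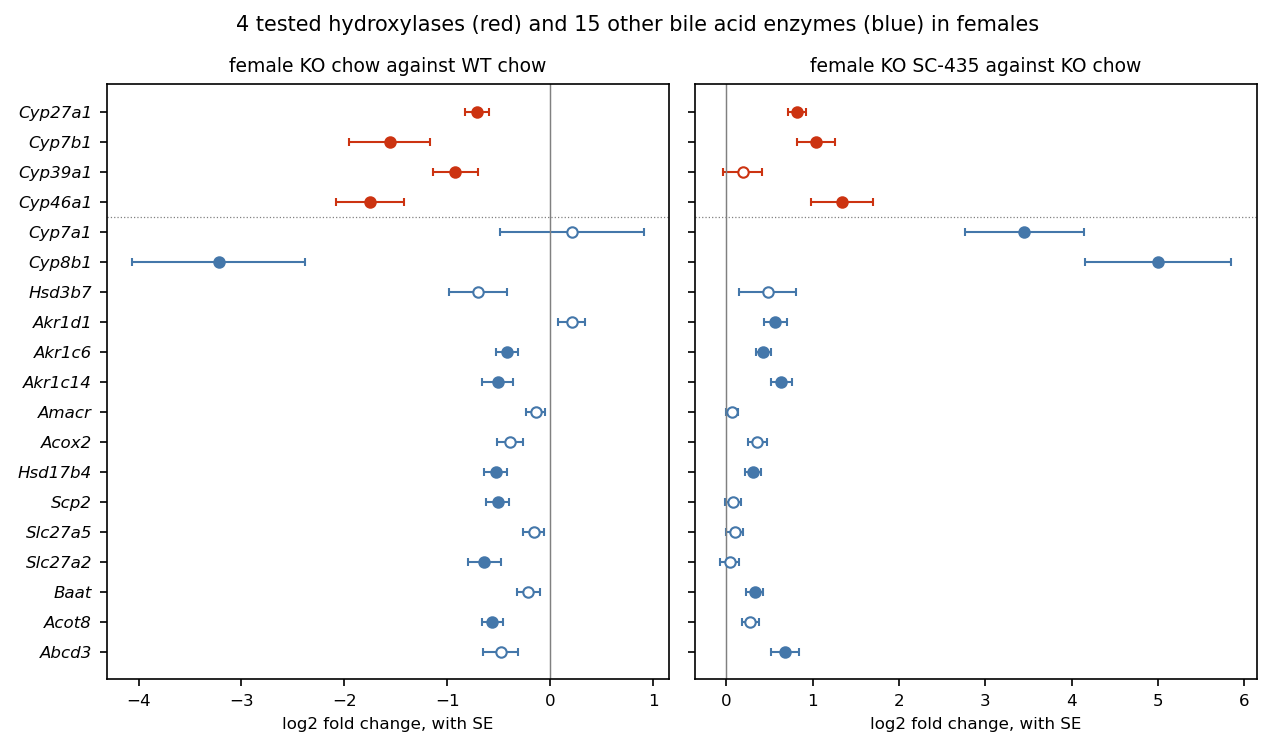
Log2 fold changes with standard errors (x axis) of 4 hydroxylases (red) and 15 other enzymes of bile acid synthesis (blue) in females, KO against WT on chow (left) and SC-435 against chow in KO mice (right); filled points passed at an adjusted p under 0.05. The classical enzymes *Cyp7a1* (3.45) and *Cyp8b1* (5.0) have the largest values on the right, above those of the hydroxylases, 0.19 to 1.34.

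On SC-435, 4 of 15 other enzymes were lower in KO than in WT females, beside 10.9% of all genes, with *Cyp8b1* at -0.65 and *Slc27a2* at -0.59. In males, 0 of 15 passed in edgeR between the genotypes on chow (median -0.36 beside 0.04) or on SC-435 (-0.06 beside -0.01), and 0 of 15 with SC-435 in WT mice (0.02 beside -0.03). The counts at an unadjusted p under 0.05 were 1, 0 and 1 in these comparisons, as were those called by DESeq2. Without the library that stands apart, 2 of 15 were lower in KO than WT males on chow, *Akr1c14* and *Cyp7a1* (median -0.29), and 2 of 15, *Cyp7a1* and *Cyp8b1*, rose with SC-435 in WT males (median 0.24). In KO males on SC-435, 6 of 15 rose and 0 fell, beside 17.2% of all genes (median 0.41 beside -0.03), led by *Cyp7a1* (log2 fold change 3.83, standard error 0.37, adjusted p = 0.000561 from edgeR) and *Cyp8b1* (2.97). Between the sexes on chow, *Scp2*, the sterol carrier protein with a thiolase domain, was higher in males in both genotypes (1.2 in WT and 1.40 in KO mice), and *Akr1d1*, the 5β-reductase, was lower in KO males than KO females (-1.09). No others of the 15 passed in edgeR with all libraries, and without the library that stands apart *Akr1c14* and *Akr1d1* also passed between the sexes in WT mice.

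Genes for cholesterol delivery and electron transfer to mitochondrial and microsomal P450 enzymes were tested as 9 genes. In edgeR 0 passed between KO and WT females on chow (median -0.18 beside -0.02; 1 with an unadjusted p under 0.05 and 1 called by DESeq2), where *Fdx1*, which encodes the ferredoxin that serves Cyp27a1, differed by -0.15 (standard error 0.12). In KO females 5 of 9 rose with SC-435, where 17.8% of all genes passed in either direction, among them *Stard4*, a carrier of cholesterol (log2 fold change 1.33, standard error 0.26, adjusted p = 0.00944 from edgeR), and *Fdx1* (0.64, standard error 0.10, adjusted p = 0.00425). In KO males 4 of 9 rose with SC-435, beside 17.2% of all genes, led by *Por*, the reductase of microsomal P450 enzymes (1.16), and *Stard4* (0.87). In WT females 2 of 9 rose with SC-435, *Por* (0.69) and *Stard5* (0.37), beside 4.28% of all genes. On SC-435 2 of 9 were higher in KO than WT females, *Stard4* (0.65) and *Fdxr*, the ferredoxin reductase (0.28), beside 10.9%. In edgeR 0 passed between the genotypes in males, in WT males with SC-435 or between the sexes, with 0 to 4 at an unadjusted p under 0.05 and 0 to 2 called by DESeq2 in each. Without the library that stands apart, *Fdx1*, *Por* and *Stard4* were lower in KO than WT males on chow, and *Fdx1* and *Stard4* higher in WT males than WT females.

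Of 14 genes of oxysterol sensing and response, 13 were tested in KO against WT females on chow, and 1 rose: *Abcg1*, a sterol exporter and target of the oxysterol receptor LXR (log2 fold change 1.19, standard error 0.17, adjusted p = 0.00251 from edgeR). That is a smaller share than the 14.9% of all genes that passed there. With SC-435 in KO females 2 of 13 rose and 3 fell, beside 17.8% of all genes. *Insig1*, which retains the SREBP complex in the endoplasmic reticulum, was the larger rise (1.54, standard error 0.31), and its relative *Insig2* the largest fall (-1.05, standard error 0.16). *Abcg1* was also the gene of this list whose SC-435 effect differed between the genotypes in females (-1.01, standard error 0.21, adjusted p = 0.0247). In WT females 2 of 12 fell with SC-435, *Insig2* (-0.53) and *Srebf1* (-0.63), which encodes SREBP-1, beside 4.28%. On SC-435, 2 of 13 were higher and 1 lower in KO than WT females, with *Insig1* at 0.88 and *Srebf1* at 0.50, beside 10.9%. In KO males 2 of 13 rose with SC-435, *Insig1* (1.17) and *Lpcat3*, a phospholipid acyltransferase (0.66), no larger a share than the 17.2% of all genes. In edgeR 0 passed in the other male comparisons or between the sexes, with 2 to 4 at an unadjusted p under 0.05 and 0 to 2 called by DESeq2 in each. Without the library that stands apart, *Insig1* rose with SC-435 in WT males, and *Insig1* and *Insig2* were lower in WT males than WT females.

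The sex-biased genes give the background for *Cyp7b1*. Of 10 male-biased genes of liver, 9 were higher in males among chow-fed WT mice (median 5.45) and 10 among KO mice (median 4.63). Of 11 female-biased genes 11 and 9 were lower in males, beside 1.49% and 2.73% of all genes passing. Without the library that stands apart, 10 and 11 passed in these directions among WT mice. *Cyp4a12a* was at 8.75 in the first of these comparisons and *Mup7* at 13.80 in the second. In KO against WT females on chow, 4 of the 10 male-biased genes fell and 2 rose, where 14.9% of all genes passed in either direction. *Hsd3b5*, a steroid dehydrogenase, differed by -5.30 (standard error 1.10, adjusted p = 0.0113 from edgeR) and *Mup7*, a major urinary protein, by -5.86. Their levels varied widely between WT females on chow, at 10.4 ± 13.1 and 18.8 ± 33.1 CPM (SD, n = 4). In KO females on chow the means were low, at 0.268 and 0.343 CPM. Of 11 female-biased genes 2 fell, beside the same 14.9%: *Sult2a1*, a bile acid sulfotransferase (-4.43, standard error 0.86), and *Cyp3a44* (-2.57). The median of the 11 was -2.36 beside -0.02 for all genes, 1 was fitted higher, and DESeq2 called 5. *Sult2a1* rose with SC-435 in KO females (6.57, standard error 0.60), as did 2 others, beside 17.8% of all genes passing. Reads of *Mup7*, *Cyp4a12a* and *Cyp3a44* may be shared with near-identical family members, so their values are uncertain.

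Genes whose levels followed each member most closely were sought among 14204 protein-coding genes, by Pearson's r of log2 CPM over the 32 libraries, which hold both sexes and diets and share scaling. The library that stands apart is among them, and the correlations were not computed without it. *Cyp27a1* was closest to *Dcaf11*, *Pex16* and *Reep6*, each at 0.93. *Cyp7b1* was closest to *Mup7* (0.97), *Capn8* (0.97) and *Selenbp2* (0.95), with males and females in separate ranges. *Cyp39a1* was closest to *Qpct* (0.78), *Sult3a2* (0.77) and *Enpp1* (0.77), and *Cyp46a1* to *Dgat2* (0.85), *Chchd7* (0.85) and *Cntfr* (0.83). For *Ch25h* the closest were *Cxcr4* (0.76), *Egr2* (0.68) and *P4ha1* (0.68), over libraries with at most 22 counts of *Ch25h*.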

How the data were processed

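Liver RNA-Seq gene counts of 32 mice, 4 per group, were used as deposited. The values are whole-number counts per gene and mouse in the authors' table. The submitters' processing notes name mm10, HISAT2 2.0.5, featureCounts 1.5.0-p3, DESeq2 1.20.0 and GATK 4.1.1.0, and the strand setting is not given in the sources used here. The authors' FPKM and fold change columns were not used.

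Each comparison was fitted on its own groups with edgeR 4.0.16 (filterByExpr, TMM factors, quasi-likelihood test, Benjamini-Hochberg adjustment over all genes tested, threshold 0.05) in R 4.3.3. Interactions were fitted on 4 groups. Levels are CPM with TMM factors over the 32 libraries. The edgeR and DESeq2 p-values weigh a difference between groups against the spread between mice. *Ch25h* was compared by exact permutation tests, added after seeing the data. For it, 3 counts served as floor, which covers counting error only. No 2 libraries of a group agreed within sampling noise.

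Alternatives were DESeq2 1.42.0, median-of-ratios and library size scaling, no filter on low counts or a mean of at least 50 counts, a replicate block, single fits over more groups, and fits without 1 library.

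The members and gene lists were chosen with earlier results of these data known. Besides the members, the 2 genes of each pathway list with the largest change among those that passed could be named in a comparison, and the 3 protein-coding genes closest to each member. Some genes were named outside this rule after their values were seen. These were *Cyp7a1* and *Fdx1* in chow-fed KO females, *Slc27a2* with SC-435 in KO females, and list genes that passed only without male WT chow replicate 1. Promoters are from RefSeq and gene models from GENCODE, both on GRCm38. Other marker lists (endothelial, stellate, B and T cell, and neutrophil genes) had 0, 1, 1 and 2 genes higher in chow-fed KO than WT females, and 0 lower. The numbers tested were 8, 7, 6 and 2, and 14.9% of all genes passed there.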

Additional observations from a re-analysis of the deposited data

Results flagged for a closer look

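Among 40 sets of 4 libraries (5 genes in 8 groups), 3 held a library far from the other three, where chance alone gives about 1 in 20. *Cyp27a1* was at 1521.5 CPM in male WT chow replicate 1, the library that stands apart, and at 583 to 651 CPM in the other WT males on chow. *Cyp27a1* was at 507.7 CPM in female WT chow replicate 4 and at 642.5 to 665 CPM in the other WT females on chow. *Ch25h* was at 0.130 CPM, from 5 counts, in male WT chow replicate 4, and at 0 counts in the other WT males on chow. The effect of SC-435 on *Cyp46a1* differed between KO and WT females by 1.89 on the log2 scale (standard error 0.43, adjusted p = 0.0317 from edgeR), being 1.34 in KO and -0.55 in WT females.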

How the results depend on the processing

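Most member differences kept their direction and side of the threshold, 377 of 400 under settings that kept all libraries and 527 of 600 in fits without 1 library. These totals include the differences that did not pass in the main fit. A call of the main fit was lost in 8 of the first and 43 of the second. Only differences that passed in the main fit could lose a call, so the share lost among those is larger than these totals give. Members called changed from 0 to 1 with DESeq2 for KO against WT males on chow, sex by SC-435 in KO mice and male genotype by SC-435, and from 0 to 1 for the first of these with the 4 male groups in a single fit. With SC-435 in KO males, 2 members were called with library size only and 0 in the single fit. Library size only moved the median of all genes by 0.19 in KO against WT females on chow, -0.16 with SC-435 in KO females, 0.25 and -0.20 in the male counterparts, and -0.16 between the sexes in WT mice. It reversed *Cyp39a1* in KO against WT males on chow (0.205) and in the female interaction (-0.0806), and *Cyp27a1* with SC-435 in WT males (0.184) and in sex by genotype (0.0534). *Cyp27a1* with SC-435 in WT males was also reversed with no filter (0.0158), a mean of at least 50 counts (0.00543) and the single fit (0.000571). Library size only moved the mean level of *Cyp27a1* in chow-fed KO females and of *Cyp39a1* in chow-fed KO males by more than 1 SD, to 428 and 22.8 CPM.

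Replicate numbers did not pair the mice: in 0 of 10 comparisons did every same-numbered pair correlate above 0.1 (range -0.25 to 0.34). With the replicate block, members called were 3 in KO against WT females on chow, 2 with SC-435 in KO females, 0 with SC-435 in WT females or KO males and in the female interaction, and 1 between the sexes in WT mice. The block reversed *Cyp7b1* with SC-435 in WT females (0.133), and *Cyp27a1* (0.102) and *Cyp39a1* (-0.0012) with SC-435 in WT males.

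Without 1 library, members called ranged from 2 to 4 in KO against WT females on chow, 2 to 3 with SC-435 in KO females and between the genotypes in females on SC-435, 0 to 1 with SC-435 in WT females, 0 to 1 in KO against WT males on chow, 0 to 2 with SC-435 in KO males, 1 to 2 between the sexes in WT mice, and 0 to 1 for sex by SC-435 and for the female interaction. Log2 differences that changed sign ranged from -0.27 to 0.371 for *Cyp7b1* with SC-435 in WT females, from -0.0126 to 0.315 for *Cyp46a1* in KO against WT females on SC-435, from -0.147 to 0.0842 for *Cyp39a1* in KO against WT males on chow, from -0.142 to 0.421 for *Cyp27a1* and -0.0712 to 0.154 for *Cyp39a1* with SC-435 in WT males, from -0.812 to 0.0949 for *Cyp46a1* between the sexes in KO mice, from -0.304 to 0.286 for *Cyp27a1* in sex by genotype, from -0.215 to 0.109 for *Cyp27a1* and -0.654 to 0.27 for *Cyp46a1* in sex by SC-435, and from -0.0933 to 0.242 for *Cyp39a1* in the female interaction.

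Counts over all genes moved more than those of the members. KO against WT males on chow had 172 genes, 17 with the replicate block, 1399 in the single fit and 1196 without WT replicate 1. SC-435 in WT males had 6 genes, 204 with DESeq2 and 394 without WT chow replicate 1. KO against WT males on SC-435 had 5 and 179 with DESeq2, and the sexes differed in 232 genes in WT mice, 1592 in a single fit of 8 groups. The female interaction had 445 genes, 68 without KO SC-435 replicate 2 and 1644 without KO chow replicate 4. The cause was not tested in any of these. Low counts limit *Cyp46a1* and *Ch25h*.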
